A study of Mus musculus with 12 samples.

Results

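The nuclear genes that encode subunits of respiratory chain complexes I, III and IV and of ATP synthase (complex V) were followed through mouse embryonic stem cells (mESC) in which the transcription factor Foxd3 was deleted or overexpressed. Members were chosen by gene symbol: rows whose symbol starts with Ndufa, Ndufb, Ndufc, Ndufs, Ndufv, Uqcr, Cox4, Cox5, Cox6, Cox7, Cox8 or Atp5, without the assembly factors named Ndufaf, without Ndufa4l2 and without symbols that end in -ps and a number. The rule found 82 rows of the 19996 in each of both serum tables and of the 19718 in the 2i table. Of these, 37 were complex I, 8 complex III, 18 complex IV and 19 complex V by name. The names do not follow the enzymes exactly: Ndufa4 is now known as a subunit of cytochrome c oxidase, and Atp5s and Atp5sl are not subunits of the isolated ATP synthase. By their Ensembl identifiers, 3 of the rows had a name with a Gm number in the GENCODE annotation of GRCm38 and were taken as retrocopies. They were Gm10175 (listed as Atp5g2), Gm10221 (listed as Atp5l) and Gm11273 (listed as Cox5b). GENCODE types Gm10175 and Gm10221 as processed pseudogenes but Gm11273 as protein coding. Reads from a retrocopy and its parent gene can be assigned to either, so these rows are uncertain. A further limit is that 10 rows join several symbols and that 28 members have an exon that overlaps an exon of another gene, while the strand setting of the authors' counting is unknown. Cox4i1, the common isoform of cytochrome c oxidase subunit 4, and Ndufb1 were not analysed here.

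Complex I passes electrons from NADH to ubiquinone, complex III from ubiquinol to cytochrome c, and complex IV from cytochrome c to oxygen. Complexes I, III and IV pump protons across the inner mitochondrial membrane, and ATP synthase uses the return flow through its membrane ring (Fo) to drive catalysis in its head (F1). Most subunits are nuclear genes, while the mitochondrial genome encodes a small set of membrane subunits, so each of these enzymes is built from both genomes. Naive mouse embryonic stem cells are known to use both oxidative phosphorylation and glycolysis.

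The 12 libraries of polyadenylated RNA form 6 groups, each with 2 libraries. Cells of the line Foxd3fl/fl;Cre-ER, which carry a floxed Foxd3 gene and a tamoxifen-activated Cre recombinase in every group, were kept in serum with LIF (SL, with 15% serum) on irradiated mouse embryonic fibroblasts or in 2i medium (serum-free medium with LIF, 0.4 μM of the MEK inhibitor PD0325901 and 3 μM of the GSK3β inhibitor CHIR99021), for which the protocol names no feeder cells. In each medium, cells given 2 μM 4-hydroxytamoxifen for 3 days (Foxd3-/-) were compared with untreated cells (Foxd3fl/fl), so that tamoxifen and Cre activity went with the deletion and cannot be told apart from it. In the overexpression experiment, tetON Foxd3 cells and LF2 WT cells, both in serum with LIF without feeders, were given doxycycline (1 μg/μl for the tetON cells) for 3 days. Whether the 2 libraries of a group came from separate cultures is not stated, so p-values measure only the spread between these libraries, which may be technical.

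Foxd3 itself was read first, as scaled FPKM (fragments per kilobase of transcript at a common sequencing depth, divided here by a median-of-ratios factor per library). In SL it was at 1.62 and 1.80 in deleted against 4.62 and 4.79 FPKM in floxed libraries (limma log2 difference -1.07 ± 0.15, adjusted p = 0.107). In the overexpression experiment it was at 52.0 and 50.01 in tetON Foxd3 against 10.6 and 14.3 FPKM in WT libraries (log2 difference 1.97 ± 0.16, adjusted p = 0.0152). In 2i it was at 1.92 and 2.24 in labelled deleted against 2.69 and 2.63 FPKM in floxed libraries (log2 difference -0.25 ± 0.10, adjusted p = 0.0595), while the authors' deposited table gave Foxd3 a signed fold of 1.70, higher in the labelled deleted group. The deletion was thus not borne out in 2i by Foxd3's own RNA, and these libraries are called labelled deleted throughout: every direction given for 2i is one between labels. The stem cell markers fixed for the label check (Pou5f1, Sox2, Nanog and others, 10 genes) summed to between 2318 and 3993 FPKM in every library. Summed over genes, the authors' mean reads came to between 24278898 (2i labelled deleted) and 54096080 (SL floxed) per group, with 27062508 in 2i floxed; totals per library are not known.

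The promoters of the c-ring genes and of 4 other ATP synthase genes are shown because complex V had the lowest median difference in 2i and Atp5j was among the few genes without a call there. Capitals mark matches to 4 motifs on either strand: GCGCATGC (NRF1), CCGGAAG (ETS factors such as GABPA), AAGATGGC (YY1) and CAAGGTCA (estrogen-related receptors). The sequences, from GRCm38.p6, run 5′ to 3′ from 250 bases before to 50 bases after a start site and are RefSeq's. In Atp5g2 the NRF1 motif and its reverse complement overlap, so that 1 run of capitals holds both.
Atp5g1 promoter, chr11:96075582-96075881, minus strand: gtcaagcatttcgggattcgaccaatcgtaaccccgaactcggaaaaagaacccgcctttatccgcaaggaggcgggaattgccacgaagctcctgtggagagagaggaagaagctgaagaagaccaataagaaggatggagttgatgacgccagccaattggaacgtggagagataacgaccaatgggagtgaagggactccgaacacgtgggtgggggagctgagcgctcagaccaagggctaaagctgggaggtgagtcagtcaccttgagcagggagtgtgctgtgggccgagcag
Atp5g2 promoter, chr15:102670998-102671297, minus strand: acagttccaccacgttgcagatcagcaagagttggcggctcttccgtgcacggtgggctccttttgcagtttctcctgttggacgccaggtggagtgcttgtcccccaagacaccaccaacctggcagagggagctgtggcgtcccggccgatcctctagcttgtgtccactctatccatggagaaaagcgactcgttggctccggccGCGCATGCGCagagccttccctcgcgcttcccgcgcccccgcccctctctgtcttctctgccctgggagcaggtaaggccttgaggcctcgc
Atp5g3 promoter, chr2:73911277-73911576, minus strand: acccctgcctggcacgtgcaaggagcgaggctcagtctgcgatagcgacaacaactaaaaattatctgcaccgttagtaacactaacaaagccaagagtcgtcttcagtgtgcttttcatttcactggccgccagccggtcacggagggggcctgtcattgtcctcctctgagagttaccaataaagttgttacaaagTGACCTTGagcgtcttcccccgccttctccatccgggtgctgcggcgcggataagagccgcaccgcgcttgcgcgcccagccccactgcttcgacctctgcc
Atp5e promoter, chr2:174464052-174464351, minus strand: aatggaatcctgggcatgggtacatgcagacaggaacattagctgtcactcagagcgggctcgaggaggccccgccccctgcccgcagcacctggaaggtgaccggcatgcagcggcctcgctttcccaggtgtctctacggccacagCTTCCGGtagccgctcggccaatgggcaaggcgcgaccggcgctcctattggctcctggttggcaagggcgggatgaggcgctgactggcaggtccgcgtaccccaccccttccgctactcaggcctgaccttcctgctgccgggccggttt
Atp5j2 promoter, chr5:145191492-145191791, minus strand: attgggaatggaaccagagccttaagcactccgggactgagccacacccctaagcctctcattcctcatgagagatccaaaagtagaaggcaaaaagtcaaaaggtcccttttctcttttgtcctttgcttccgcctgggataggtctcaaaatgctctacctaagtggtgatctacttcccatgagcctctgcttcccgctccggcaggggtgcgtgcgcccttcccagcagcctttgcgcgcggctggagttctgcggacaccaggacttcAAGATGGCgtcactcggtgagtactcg
Atp5l promoter, chr9:44920693-44920992, minus strand: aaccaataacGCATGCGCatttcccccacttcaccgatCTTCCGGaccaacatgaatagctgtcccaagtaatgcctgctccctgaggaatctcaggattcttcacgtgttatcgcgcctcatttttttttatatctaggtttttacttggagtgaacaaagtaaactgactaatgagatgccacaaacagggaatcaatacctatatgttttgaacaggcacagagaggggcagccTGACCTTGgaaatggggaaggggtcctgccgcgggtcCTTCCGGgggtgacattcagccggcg
Atp5j (downstream start site) promoter, chr16:84834927-84835226, minus strand: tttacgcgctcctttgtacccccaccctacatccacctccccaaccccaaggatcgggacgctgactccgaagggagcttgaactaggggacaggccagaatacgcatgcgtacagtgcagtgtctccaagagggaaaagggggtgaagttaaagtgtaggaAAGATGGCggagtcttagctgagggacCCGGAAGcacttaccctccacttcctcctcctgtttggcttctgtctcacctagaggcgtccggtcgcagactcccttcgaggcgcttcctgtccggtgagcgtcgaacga
Atp5g1, whose difference in 2i was -0.93 ± 0.05, adjusted p = 2.35e-05, has no match, and Atp5j, which was not called there, has an ETS and a YY1 match at the downstream one of its 2 start sites and none at the other. Over the 67 members with a RefSeq promoter, the NRF1 motif was in 9 (13.4%, against 3.93% of 17491 protein-coding genes), the ETS motif in 14 (20.9%, against 12.9%), the YY1 motif in 11 (16.4%, against 3.57%) and the ERR motif in 3 (4.48%, against 1.56%). Any of the 4 was in 31 members, whose median log2 difference in 2i was -0.50, against -0.53 in the 36 without a match. A match is a run of letters only, and its absence says nothing of the factor.

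In 2i, transcripts for subunits of complexes I, III, IV and V were lower in the labelled deleted libraries than in the floxed libraries almost throughout. The 82 members summed to 11853 and 11502 in labelled deleted against 16909 and 17501 FPKM in floxed libraries, which is 67.9% of the floxed mean, and the sums of complexes I, III, IV and V were at 70.5%, 69.7%, 69.1% and 63.65%. Fewer cells of a type and less RNA per cell cannot be told apart in such bulk libraries. Of the 78 members that passed the filter (a mean of at least 1 FPKM in a group), limma called 72 lower and 1 higher at an adjusted p under 0.05. Of all genes tested, 33.8% were called lower and 30.3% higher. The groups did not overlap for 76 of the 78, with 73 lower in both labelled deleted libraries than in both floxed libraries. Of all 11594 genes tested, 5005 (43.2%) were lower in this way, 4705 were higher and 1884 overlapped. Groups that lay apart were thus common among all genes in 2i, also for the single genes named below. The authors' test, adjusted here over all rows without the filter, called 72 of the 82 lower and 1 higher. Of all its 19718 genes, 20.2% were lower. The 2 tests did not call quite the same members. The 1 called higher was Cox6b2 in the authors' test and Atp5s in limma. The authors' test called Cox4i2 lower, which limma did not test, and did not call Gm10175, which limma called lower. The median log2 difference of the 78 was -0.53, against -0.02 over all genes tested. Abundance and length went with this difference. Of the other genes at 50 FPKM or more, 69.7% were called lower, with a median of -0.32. Of those with a longest transcript under 1000 nucleotides, 79.8% were called lower, with a median of -0.50. Members of that length had 89.7% called lower and a median of -0.57. Among the other abundant genes with a longest transcript of 1000 nucleotides or more, 68.5% were called lower, with a median of -0.30. Members of that length had 94.9% called lower and a median of -0.50. Of all members tested, 92.3% were called lower. The part of abundance and length in the result was not tested. In FPKM as deposited, without median-of-ratios scaling, 65 members were called lower and 4 higher with a median of -0.30, while the median of all genes moved to 0.19.

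Markers of other cell types also moved between the labels in 2i, most of them at low levels. Among all genes tested, limma called 30.3% higher and 33.8% lower. The authors' test called 4071 higher and 3980 lower of all its 19718 genes. The 10 stem cell markers had 5 called higher and 1 lower by limma (median 0.35), and 6 and 2 by the authors' test. Of the 16 fibroblast markers, 7 were tested, and limma called 5 higher and 1 lower in the labelled deleted libraries (median 0.37), while the authors' test called 7 higher and 2 lower. Their sum was 503 to 519 FPKM in labelled deleted and 511 to 516 FPKM in floxed libraries, most of it from Fn1 (302 and 287 against 337 and 314 FPKM) and Sparc (197 and 196 against 166 and 183 FPKM), genes that other cells express too; Lum was listed at 0 in all 4 libraries and Fap in both floxed libraries. The collagen gene Col1a1 was at 7.49 and 6.92 in labelled deleted against 3.46 and 3.94 FPKM in floxed libraries (log2 difference 0.81 ± 0.10, adjusted p = 3.49e-04), and Thy1 at 0.216 and 0.257 in labelled deleted against 2.89 and 3.23 FPKM in floxed libraries (log2 difference -1.72 ± 0.10, adjusted p = 2.57e-05). Of 7 muscle and heart markers 3 were tested and 2 fell, Myl2 (-1.22 ± 0.12, adjusted p = 1.76e-04) and Tnnt2 (-0.88 ± 0.10, adjusted p = 3.15e-04), and the 7 summed to 4.39 to 4.59 FPKM in labelled deleted and 7.89 to 9.33 FPKM in floxed libraries. In primitive endoderm, Gata4 was the 1 gene of 6 tested, and it rose (0.66 ± 0.11, adjusted p = 0.00165), with sums of 3.67 to 3.76 against 1.89 to 2.01 FPKM. Nes rose among 3 neural markers tested (0.43 ± 0.08, adjusted p = 0.00236, sums 16.5 to 16.9 against 13.2 to 13.6 FPKM), and Krt7, the 1 trophoblast marker tested, fell (-0.87 ± 0.11, adjusted p = 3.95e-04, sums 4.40 to 5.38 against 8.06 to 8.94 FPKM). Their part in the members' differences was not tested.

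**Figure D1:**
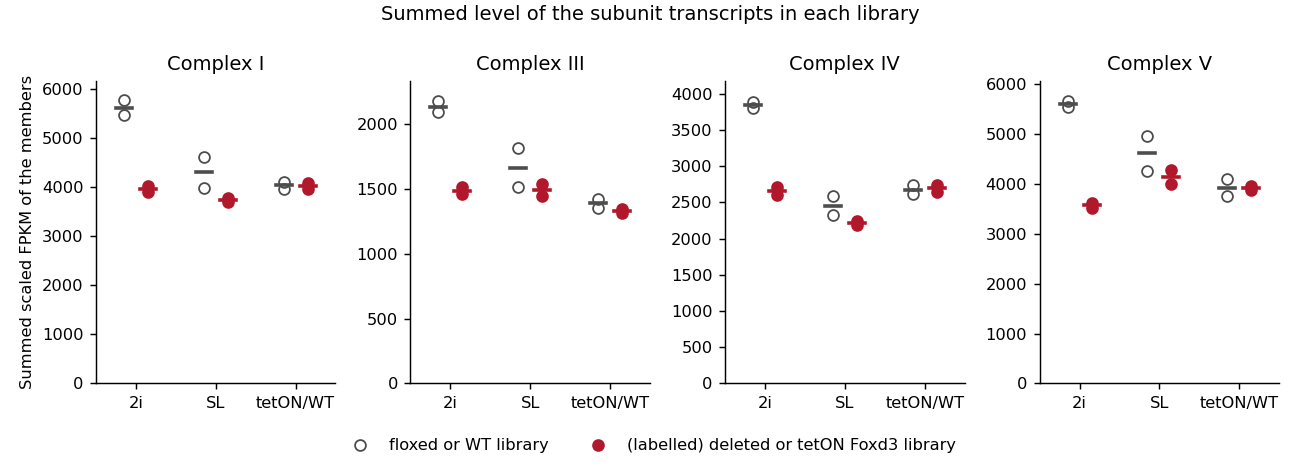
Summed scaled FPKM of the members of each complex (y axis, from 0) in each of the 12 libraries, with a line at each group's mean; scaling was done within each table, so levels are compared only within 2i, within SL and within tetON/WT. In 2i both labelled deleted libraries lie below both floxed libraries in all 4 complexes, with complex V at 3613 and 3528 against 5551 and 5669 FPKM.

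Complex I fell in 2i in 36 of 37 members, with a median log2 difference of -0.49. Among the core subunits, Ndufv1, which binds NADH and FMN, was at 88.9 and 89.7 in labelled deleted against 118 and 121 FPKM in floxed libraries (log2 difference -0.41 ± 0.05, adjusted p = 2.58e-04). The largest core protein, Ndufs1, was at 61.1 and 59.3 in labelled deleted against 72.5 and 74.3 FPKM in floxed libraries (log2 difference -0.28 ± 0.05, adjusted p = 0.00203). In both genes the labelled deleted libraries were under both floxed libraries, and the differences of the core subunits Ndufv2, Ndufs3, Ndufs7 and Ndufs8 were -0.52, -0.55, -0.30 and -0.38, all 4 called. The largest fall in the complex was in the accessory flavoprotein subunit Ndufv3, at 130.3 and 135 in labelled deleted against 253 and 248 FPKM in floxed libraries (log2 difference -0.91 ± 0.05, adjusted p = 2.15e-05). Among the membrane arm accessory subunits, Ndufb4 was at 67.6 and 69.0 in labelled deleted against 106 and 108 FPKM in floxed libraries (log2 difference -0.63 ± 0.05, adjusted p = 5.62e-05). The acyl carrier protein Ndufab1, which also serves mitochondrial fatty acid synthesis, was at 207 and 209 in labelled deleted against 284 and 324 FPKM in floxed libraries (log2 difference -0.54 ± 0.07, adjusted p = 3.74e-04). Groups were apart for these 3 genes as well. The 1 member not called was the membrane arm subunit Ndufc2, at 84.0 and 87.1 in labelled deleted against 88.1 and 87.2 FPKM in floxed libraries (log2 difference -0.03 ± 0.05, adjusted p = 0.549), where both labelled deleted libraries were the lower ones by a small margin. Ndufa4, named for complex I but assigned to cytochrome c oxidase, was at 292 and 270.4 in labelled deleted against 372 and 380.3 FPKM in floxed libraries (log2 difference -0.42 ± 0.05, adjusted p = 4.88e-04).

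All 8 members of complex III fell in 2i, with differences from -0.68 to -0.41. The hinge protein Uqcrh, which contacts cytochrome c1, was at 176 and 168 in labelled deleted against 274 and 280.2 FPKM in floxed libraries (log2 difference -0.68 ± 0.05, adjusted p = 4.95e-05). The small subunit Uqcr10 was at 395 and 379.9 in labelled deleted against 573 and 550.3 FPKM in floxed libraries (log2 difference -0.54 ± 0.05, adjusted p = 1.27e-04). The Rieske iron-sulfur protein Uqcrfs1, the only member of the complex here that carries a redox centre, was at 62.7 and 66.8 in labelled deleted against 91.6 and 91.7 FPKM in floxed libraries (log2 difference -0.50 ± 0.05, adjusted p = 1.97e-04). The 8 genes were close to each other in size of change, and in every one the 2 groups were apart.

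Complex IV fell in 12 of 14 members tested in 2i, with a median of -0.60, and its exceptions were tissue isoforms. The common isoform Cox8a, the most abundant member of the complex, was at 445 and 459.7 in labelled deleted against 705 and 722 FPKM in floxed libraries (log2 difference -0.66 ± 0.05, adjusted p = 5.62e-05). Its heart and muscle counterpart Cox8b was listed at 0 FPKM in both labelled deleted libraries and at 4.53 and 3.45 FPKM in the floxed libraries (adjusted p = 2.16e-05), with 0.39 against 32.2 mean reads in the authors' deposited table. Cox8b passed the filter only through the floxed group, so that it had to differ, and no fold is given against a listed 0. The testis isoform Cox8c stayed under the filter in all 4 libraries of 2i.

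The other isoform sets of complex IV are set side by side in the same way. Cox6a1, the common isoform, was at 347 and 337 in labelled deleted against 457 and 481 FPKM in floxed libraries (log2 difference -0.46 ± 0.05, adjusted p = 2.47e-04), while the muscle isoform Cox6a2 was at 0.0539 and 0.0487 against 0.437 and 0.0630 FPKM and under the filter. Cox6b1, the common isoform of the subunit that bridges the dimer, was at 312 and 288 in labelled deleted against 407 and 403 FPKM in floxed libraries (log2 difference -0.43 ± 0.05, adjusted p = 4.31e-04). Its testis counterpart Cox6b2 was at 107 and 99.2 in labelled deleted against 92.3 and 97.3 FPKM in floxed libraries (log2 difference 0.12 ± 0.06, adjusted p = 0.104): here the labelled deleted libraries were the higher ones, limma made no call, and the authors' deposited table gave a fold of 1.23 with an adjusted p of 0.00109. The 3 members of the Cox7a set all fell. The common isoform Cox7a2 was at 130 and 129 in labelled deleted against 201 and 205 FPKM in floxed libraries (log2 difference -0.65 ± 0.05, adjusted p = 4.57e-05). The heart and muscle isoform Cox7a1 was at 31.9 and 29.9 in labelled deleted against 57.5 and 59.7 FPKM in floxed libraries (log2 difference -0.91 ± 0.06, adjusted p = 3.31e-05). Cox7a2l, a relative that helps join complexes III and IV into supercomplexes, was at 111 and 109.7 in labelled deleted against 176 and 186 FPKM in floxed libraries (log2 difference -0.71 ± 0.05, adjusted p = 4.58e-05). Groups did not overlap in any of the 3. Cox4i2, the isoform linked to lung and low oxygen, was under the filter at 0.236 and 0.341 in labelled deleted against 0.841 and 0.940 FPKM in floxed libraries. The testis isoform Cox7b2 was low and overlapped between groups, at 1.496 and 1.66 in labelled deleted against 1.04 and 1.65 FPKM in floxed libraries (log2 difference 0.15 ± 0.14, adjusted p = 0.362).

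**Figure D2:**
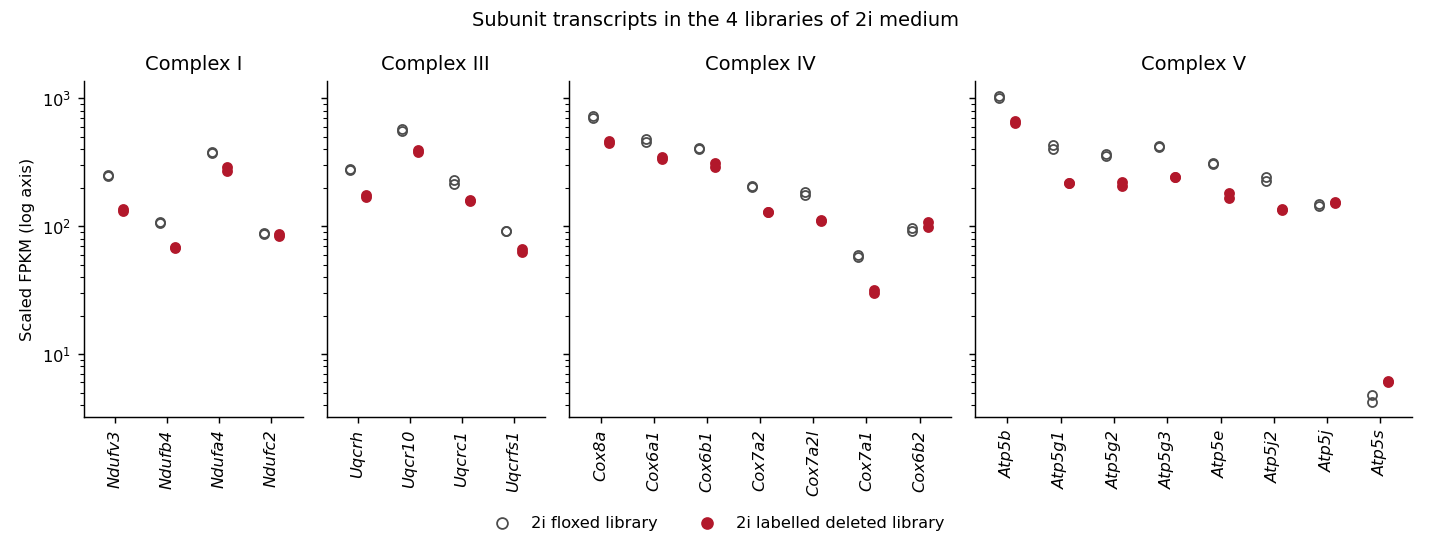
Scaled FPKM on a log axis of 23 members in the 4 libraries of 2i medium, by complex, with open grey points for floxed and filled red points for labelled deleted libraries. The red points lie under the grey ones for most genes, by little for Ndufc2, and above them for Cox6b2, Atp5j and Atp5s, with Atp5s at 6.20 and 6.06 against 4.76 and 4.25 FPKM.

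ATP synthase fell in 16 of 19 members in 2i and rose in 1, with the lowest median of the 4 complexes, -0.63; whether the complexes differed from each other was not tested. In the F1 head, the catalytic β subunit Atp5b was at 661 and 643 in labelled deleted against 1035 and 1007 FPKM in floxed libraries (log2 difference -0.65 ± 0.05, adjusted p = 6.44e-05). The other large subunit of the head, Atp5a1 (α), was at 359.5 and 357 in labelled deleted against 550.2 and 550.3 FPKM in floxed libraries (log2 difference -0.62 ± 0.05, adjusted p = 5.49e-05). Atp5e, the ε subunit at the foot of the rotor stalk, was at 181 and 165 in labelled deleted against 303 and 313 FPKM in floxed libraries (log2 difference -0.83 ± 0.06, adjusted p = 4.60e-05). These differences were several times their standard errors, with no overlap between groups. The 3 c-ring genes encode the same mature protein behind different import sequences. Atp5g1 was at 216 and 217 in labelled deleted against 401 and 429 FPKM in floxed libraries (log2 difference -0.93 ± 0.05, adjusted p = 2.35e-05). Atp5g2 was at 223 and 206 in labelled deleted against 355 and 367 FPKM in floxed libraries (log2 difference -0.75 ± 0.06, adjusted p = 5.29e-05). Atp5g3 was at 242 and 242 in labelled deleted against 419 and 423 FPKM in floxed libraries (log2 difference -0.80 ± 0.05, adjusted p = 2.54e-05), so that all 3 lay between 206 and 242 FPKM in the labelled deleted libraries. The Fo subunit Atp5j2 (f) was at 134 and 135 in labelled deleted against 225 and 241 FPKM in floxed libraries (log2 difference -0.79 ± 0.05, adjusted p = 3.60e-05). The Atp5g2 retrocopy Gm10175 was listed at 39.7 and 37.4 in labelled deleted against 60.8 and 71.9 FPKM in floxed libraries (log2 difference -0.76 ± 0.08, adjusted p = 2.16e-04), but the authors' mean reads for it were only 30.7 and 49.4, so its level is uncertain.

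In 2 genes of the complex the labelled deleted libraries had the higher values. Atp5s was at 6.20 and 6.06 in labelled deleted against 4.76 and 4.25 FPKM in floxed libraries (log2 difference 0.37 ± 0.09, adjusted p = 0.00929), called higher by limma, while the authors' test gave an adjusted p of 0.0506; without labelled deleted replicate 1 the limma call was lost. Atp5j, coupling factor 6 of the peripheral stalk, was at 155 and 152 in labelled deleted against 145 and 148 FPKM in floxed libraries (log2 difference 0.06 ± 0.05, adjusted p = 0.256), with the labelled deleted libraries above the floxed ones but no call. Its exons overlap those of Gabpa on the opposite strand, and Gabpa, a subunit of an ETS factor known to bind promoters of respiratory genes, was at 46.0 and 46.2 in labelled deleted against 43.7 and 44.3 FPKM in floxed libraries (log2 difference 0.07 ± 0.05, adjusted p = 0.281). Reads within the overlapping stretch cannot be assigned to 1 of these 2 genes without strand. The other gene of the complex without a call was Atp5sl, at 17.5 and 18.6 in labelled deleted against 20.4 and 18.2 FPKM in floxed libraries (log2 difference -0.09 ± 0.08, adjusted p = 0.342).

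**Figure D3:**
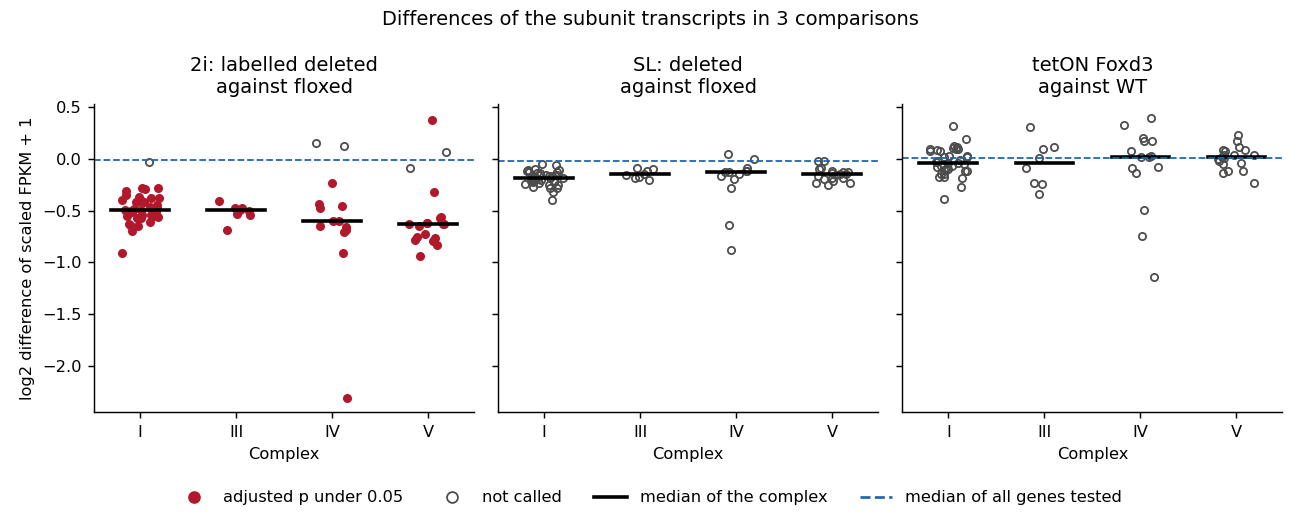
The log2 difference of scaled FPKM + 1 (y axis) of each member tested, by complex, in the 3 comparisons; filled points passed an adjusted p of 0.05 in limma, black lines are medians of a complex and the dashed line is the median of all genes tested. In 2i the complexes have medians from -0.63 to -0.49, in SL from -0.18 to -0.13, and in tetON against WT from -0.04 to 0.02.

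Every nuclear list of oxidative metabolism had a median below 0 in 2i, and the mitochondrially encoded list had one above 0. For scale, 33.8% of all genes tested were called lower in 2i. Among genes of at least 50 FPKM outside the members it was 69.7%, with a median of -0.32. Complex II, the succinate dehydrogenase that also belongs to the citric acid cycle, and cytochrome c with its partner Cyc1 fell in 6 of 6 genes. Sdhc, a membrane anchor of complex II, was at 85.5 and 81.9 in labelled deleted against 150.0 and 149.6 FPKM in floxed libraries (log2 difference -0.83 ± 0.05, adjusted p = 2.57e-05). The other anchor, Sdhd, had a difference of -0.83 ± 0.06 (adjusted p = 3.83e-05), and the iron-sulfur subunit Sdhb one of -0.74 ± 0.05 (adjusted p = 4.08e-05). Of 17 genes of the citric acid cycle and pyruvate dehydrogenase, 14 fell and none rose. Their median of -0.29 was near the -0.32 of the abundant genes outside the members. The genes that fell included fumarase (Fh1, -0.67 ± 0.06, adjusted p = 1.18e-04) and citrate synthase (Cs, -0.48 ± 0.05, adjusted p = 1.26e-04). Of 48 assembly factors, 22 fell (45.8%, against 33.8% of all genes) and 7 rose (against 30.3% of all genes), with a median of -0.19. Cox14 and Cox20, which help in early assembly of cytochrome c oxidase, had differences of -0.89 ± 0.06 (adjusted p = 4.59e-05) and -0.87 ± 0.08 (adjusted p = 1.24e-04); the complex I assembly factor Ecsit had -0.72 ± 0.07 (adjusted p = 1.34e-04). All 7 genes of a list linked to hypoxia or to limits on respiration fell. Ndufa4l2, a relative of Ndufa4 that is induced in low oxygen and was left out of the members by the rule, was at 5.62 and 8.33 in labelled deleted against 58.5 and 58.6 FPKM in floxed libraries (log2 difference -2.92 ± 0.14, adjusted p = 1.70e-05). The ATP synthase inhibitor Atpif1 was at 237 and 220.1 in labelled deleted against 359.7 and 359 FPKM in floxed libraries (log2 difference -0.65 ± 0.05, adjusted p = 7.52e-05), and Higd1a, a small protein that binds respiratory complexes, had -0.69 ± 0.06 (adjusted p = 8.68e-05). Among 13 regulators of mitochondrial genes tested, 5 fell (38.5%, near the 33.8% of all genes) and 1 rose (median -0.09). The riser was Twnk, the mitochondrial DNA helicase (0.62 ± 0.10, adjusted p = 0.00161); Nrf1 and Gabpb1, which encode activators of respiratory genes, had -0.27 ± 0.06 (adjusted p = 0.00391) and -0.28 ± 0.06 (adjusted p = 0.00375).

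The mitochondrially encoded subunits did not follow the nuclear ones. Of 13 mitochondrial transcripts, 8 were called higher and none lower in the labelled deleted libraries, with a median of 0.67. Of all genes tested, 30.3% were called higher. The authors' test called 4 of the 13 higher, against 4071 of all its 19718 genes. The complex I subunit mt-Nd4 was at 347 and 408 in labelled deleted against 179.6 and 111 FPKM in floxed libraries (log2 difference 1.41 ± 0.19, adjusted p = 6.49e-04). Its neighbour mt-Nd4l was at 302 and 354 in labelled deleted against 135 and 65.4 FPKM in floxed libraries (log2 difference 1.79 ± 0.28, adjusted p = 0.00111), and mt-Nd3 at 141 and 233 in labelled deleted against 81.9 and 39.3 FPKM in floxed libraries (log2 difference 1.66 ± 0.33, adjusted p = 0.00369). The catalytic subunit of cytochrome c oxidase, mt-Co1, was at 2629 and 2268 in labelled deleted against 2884 and 2051 FPKM in floxed libraries and overlapped between groups (log2 difference 0.01 ± 0.15, adjusted p = 0.975). The floxed libraries differed widely from each other: floxed replicate 2 was the lower one in all 3 of the called genes named, and the 13 genes summed to 6183 to 9470 FPKM in floxed against 10267 to 10605 FPKM in labelled deleted libraries. Without floxed replicate 1 the count of genes called was 12 and the median 1.18, and without floxed replicate 2 they were 8 and 0.30; this alternative was added after the values were seen. The libraries are of polyadenylated RNA, which mitochondrial transcripts enter through short tails.

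**Figure D4:**
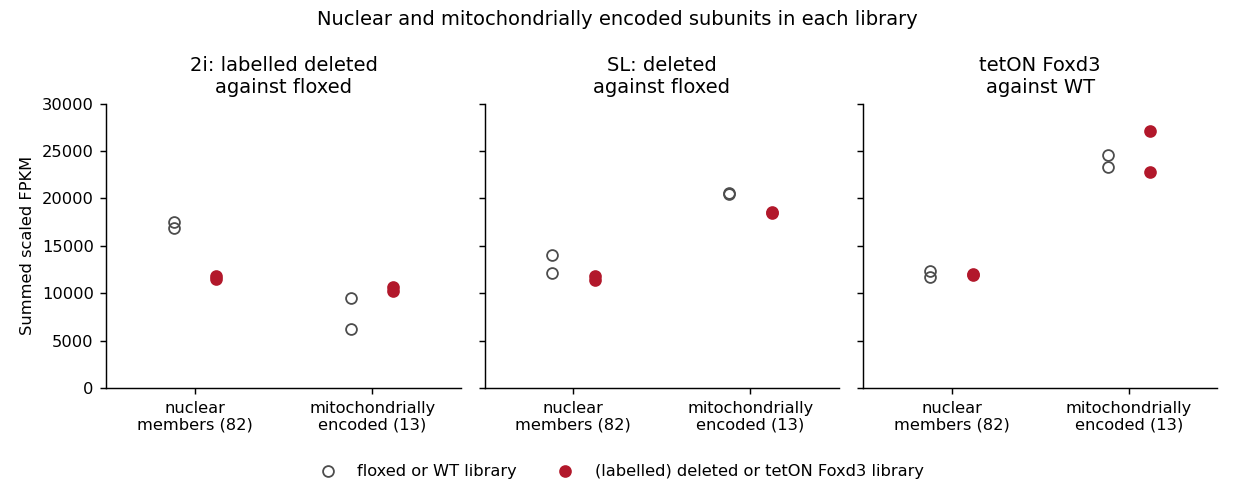
Summed scaled FPKM (y axis, from 0) of the 82 nuclear members and of the 13 mitochondrially encoded subunits in each library, for the 3 comparisons. In 2i the nuclear sum is lower and the mitochondrial sum higher in the labelled deleted libraries, while in SL both deleted sums lie below the floxed ones, with mitochondrial sums of 18457 to 18557 against 20481 to 20568 FPKM.

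In SL no member was called without a replicate block, and most values lay a little lower in the deleted libraries. Of 77 members tested, limma called 0 (smallest adjusted p = 0.212), and before adjustment 6 were lower and 0 higher at p under 0.05, where 3.67% of all genes were lower. The authors' test, adjusted here, also called 0. Of all genes tested, limma called 0.00832% and the authors' test 0.535%. The members summed to 11851 and 11339 in deleted against 13994 and 12089 FPKM in floxed libraries, or 88.9% of the floxed mean. Of the 77 differences, 76 were below 0, with a median of -0.17 against -0.03 over all genes; other genes of at least 50 FPKM had a median of -0.07, and the short ones among them -0.12. In 46 members (59.7%) both deleted libraries were under both floxed libraries, as in 20.2% of all genes, and 31 overlapped. This rested largely on 1 library: SL floxed replicate 1 held the highest of the 4 values in 75 of 77 members. Without it the median was -0.07 and 61 of 78 differences were below 0, whereas without SL floxed replicate 2 the median was -0.26, 77 of 77 were below 0 and 2 were called lower. Both SL groups were grown on fibroblast feeders. The 16 fibroblast markers summed to 673 to 744 FPKM in deleted and 469 to 529 FPKM in floxed libraries, and 13 of 13 tested were above 0. Limma called 0 of them, with 11 higher at an unadjusted p under 0.05, against 658 of all 12021 genes tested. The authors' test called 5 higher, against 88 of all its 19996 genes. Col1a1, which encodes a chain of type I collagen, was at 48.2 and 44.2 in deleted against 27.1 and 37.4 FPKM in floxed libraries. No marker of the list was at 0 in both libraries of a group, and the part of feeder RNA in the members' values was not tested.

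The 3 lowest differences in SL were those of Cox4i2, Cox7a1 and Ndufv3. Cox4i2 was at 0.752 and 0.983 in deleted against 2.90 and 2.01 FPKM in floxed libraries (log2 difference -0.88 ± 0.19, adjusted p = 0.212), and it passed the filter only through the floxed group. Cox7a1 was at 18.1 and 16.9 in deleted against 32.9 and 23.3 FPKM in floxed libraries (log2 difference -0.64 ± 0.18, adjusted p = 0.315). Ndufv3 was at 126 and 120.0 in deleted against 173 and 152 FPKM in floxed libraries (log2 difference -0.40 ± 0.11, adjusted p = 0.328). In these 3 genes the groups were apart, but none of the differences passed the adjusted threshold. The 1 difference above 0 was that of Cox6b2, at 45.6 and 37.8 in deleted against 48.9 and 33.1 FPKM in floxed libraries (log2 difference 0.04 ± 0.20, adjusted p = 0.983); its sign turned when SL deleted replicate 1 or SL floxed replicate 2 was left out. The abundant members showed the same narrow range. Atp5b was at 744 and 697 in deleted against 857 and 721 FPKM in floxed libraries (log2 difference -0.13 ± 0.12, adjusted p = 0.868), with the sign lost without SL floxed replicate 1. Atp5g1 was at 317 and 236 in deleted against 333 and 255 FPKM in floxed libraries (log2 difference -0.09 ± 0.18, adjusted p = 0.952), where replicate 1 of each group was the higher one. Cox8a was at 314 and 323 in deleted against 331 and 361 FPKM in floxed libraries (log2 difference -0.12 ± 0.10, adjusted p = 0.853). By complex, the medians were -0.18 (I), -0.15 (III), -0.13 (IV) and -0.15 (V), and 5 members stayed under the filter (Cox6a2, Cox7b2, Cox8b, Cox8c and Gm11273).

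Other genes of the pathway in SL were not called by limma in any list. The 6 genes of complex II and cytochrome c were each lower in both deleted libraries (median -0.21; 2 at an unadjusted p under 0.05, and 0 called by the authors' test), for example Sdhc at 88.1 and 75.9 in deleted against 105 and 104 FPKM in floxed libraries (log2 difference -0.35 ± 0.12, adjusted p = 0.436). The 13 mitochondrially encoded genes had a median of -0.16, with 1 at an unadjusted p under 0.05 (mt-Nd2, -0.25 ± 0.10, adjusted p = 0.524) and 0 called by the authors' test. Of the hypoxia-linked list 3 of 7 were lower at an unadjusted p under 0.05, and Ndufa4l2 was at 7.60 and 9.44 in deleted against 24.95 and 27.7 FPKM in floxed libraries (log2 difference -1.53 ± 0.15, adjusted p = 0.061); the authors' test called this gene lower, with a fold of -3.05 in the authors' deposited table. Assembly factors, regulators and the citric acid cycle had medians of -0.09, -0.0048 and -0.10, with 3, 1 and 0 genes at an unadjusted p under 0.05 and 0 called by the authors' test.

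The difference between media was tested directly, as the log2 difference in 2i minus that in SL over the 8 libraries. Of 79 members tested, 24 were more negative in 2i and 1 was more positive, against 10.8% and 9.62% of all genes. The median over the members was -0.33, and over all genes 0.00. Other abundant genes also lay lower in 2i than in SL. Those of at least 50 FPKM had medians of -0.32 in 2i and -0.07 in SL. The ones among them with a longest transcript under 1000 nucleotides had -0.50 and -0.12. The part of abundance and length in the difference between media was not tested. Complex V accounted for 12 of the 24, complex I for 6, complex IV for 5 and complex III for 1. The 12 include the retrocopy row Gm10175, whose level is uncertain, and the 5 include Cox8b, which was listed at 0 in both labelled deleted libraries. The supercomplex factor Cox7a2l, which was not called in SL (142 and 144 against 148 and 139 FPKM), differed by -0.70 ± 0.10 (adjusted p = 0.00566). Of the c-ring genes, 2 were among those with the smallest adjusted p, with -0.58 ± 0.10 (adjusted p = 0.011) for Atp5g2 and -0.66 ± 0.13 (adjusted p = 0.0139) for Atp5g3. Cox8a differed by -0.54 ± 0.10 (adjusted p = 0.0128), and the α subunit gene Atp5a1 by -0.46 ± 0.09 (adjusted p = 0.0145). In complex I, Ndufb4 differed by -0.50 ± 0.10 (adjusted p = 0.0147). Cox8b had an adjusted p of 0.00131, which rests on its values in 2i floxed cells alone, since it was at or under 0.163 FPKM in SL. The 1 more positive member was Atp5s, with 0.63 ± 0.18 (adjusted p = 0.0426).

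These calls between media depended on single libraries. The share of all genes called with a library left out or without scaling is not given here. A change in the count below may therefore not be particular to the members. The count was unchanged without SL floxed replicate 2 and fell least without SL deleted replicate 2. With each library left out in turn, the members' median lay between -0.457 and -0.237, with 70 to 74 of 79 differences below 0. For the other libraries the count moved further. The count of 25 became 9 without SL deleted replicate 1, 61 without SL floxed replicate 1, 3 without labelled deleted replicate 1 in 2i, 2 without labelled deleted replicate 2, 9 without 2i floxed replicate 1 and 2 without 2i floxed replicate 2. In FPKM as deposited it was 12, split into 9 more negative and 3 more positive, where the split was 24 and 1 after scaling. Among the other lists, 6 of 13 mitochondrially encoded genes were more positive in 2i (median 0.84), with mt-Nd4 at 1.55 ± 0.27 (adjusted p = 0.0103), and 3 of 6 genes of complex II and cytochrome c were more negative, with Sdhd at -0.67 ± 0.13 (adjusted p = 0.0122). Feeder cells are named in the protocol for SL and not for 2i, and the fibroblast marker Col1a1 was at 27.1 to 48.2 FPKM in SL and 3.46 to 7.49 FPKM in 2i libraries. What feeder RNA and the medium each add to this contrast was not tested.

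**Figure D5:**
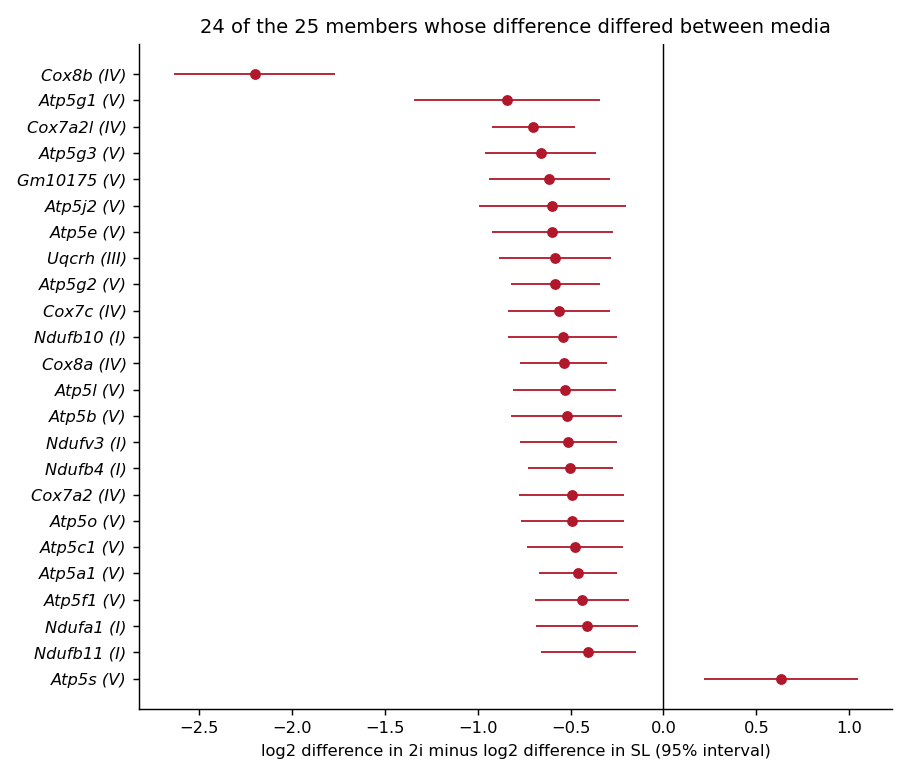
Of the 25 members with an adjusted p under 0.05, 24 are plotted, by the log2 difference in 2i minus that in SL (x axis, points with 95% intervals from limma); complexes are in parentheses. Apart from Cox8b, the 22 other negative values shown lie between -0.84 and -0.40, and Atp5s is the only positive one at 0.63.

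Under Foxd3 overexpression no member was called by limma. It called 0 of 79 members tested (smallest adjusted p = 0.0732), against 2.49% of all genes. Before adjustment, 3 members were higher and 7 lower at p under 0.05, against 1084 higher and 1368 lower of all 11975 genes tested. The authors' test called 1 lower, the muscle isoform Cox6a2, against 4.55% of all its genes. The median difference was -0.01, and the members summed to 12017 and 11910 in tetON Foxd3 against 11704 and 12361 FPKM in WT libraries. Both tetON libraries were above both WT libraries in 15 members and below them in 27 (26.0% and 25.9% of all genes), with 37 overlapping. Cox6a2 was at 0.292 and 0.913 in tetON Foxd3 against 2.76 and 2.19 FPKM in WT libraries (log2 difference -1.14 ± 0.24, adjusted p = 0.0732; fold -4.19 in the authors' deposited table), a low level that passed the filter only through WT. The testis isoform Cox7b2 was at 9.23 and 5.21 in tetON Foxd3 against 16.3 and 9.29 FPKM in WT libraries (log2 difference -0.74 ± 0.34, adjusted p = 0.298). Cox6b2 was at 103 and 72.1 in tetON Foxd3 against 134 and 111 FPKM in WT libraries (log2 difference -0.49 ± 0.19, adjusted p = 0.232). All 3 isoforms had their lower values in the tetON libraries, though the replicates of Cox7b2 differed within each group by a factor similar to that between groups.

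On the higher side, Cox7a1 was at 20.2 and 16.0 in tetON Foxd3 against 13.1 and 13.7 FPKM in WT libraries (log2 difference 0.39 ± 0.15, adjusted p = 0.216). Cox7a2l was at 139.7 and 143 in tetON Foxd3 against 110.3 and 114 FPKM in WT libraries (log2 difference 0.33 ± 0.08, adjusted p = 0.0966), with the groups apart. Ndufv3 was at 139 and 92.5 in tetON Foxd3 against 99.6 and 83.0 FPKM in WT libraries (log2 difference 0.31 ± 0.21, adjusted p = 0.46) and overlapped. The abundant members lay close together: Atp5b was at 713 and 722 in tetON Foxd3 against 696 and 746 FPKM in WT libraries (log2 difference -0.01 ± 0.08, adjusted p = 0.9752), and the sign of its difference turned under other scalings. Of the other lists of pathway genes, limma called 1 gene, the pyruvate dehydrogenase subunit Pdha1, at 66.1 and 83.5 in tetON Foxd3 against 132 and 129 FPKM in WT libraries (log2 difference -0.81 ± 0.13, adjusted p = 0.0471). The regulator Yy1 was at 40.3 and 45.8 in tetON Foxd3 against 28.8 and 30.1 FPKM in WT libraries (log2 difference 0.53 ± 0.11, adjusted p = 0.068), with a call in the authors' test only. The mitochondrially encoded genes had a median of 0.07, with 0 called by limma, 0 at an unadjusted p under 0.05 and 0 called by the authors' test. Among cell type markers, limma called 3 of 10 stem cell markers lower and 2 of 4 neural markers tested higher, against 2.49% of all genes in either direction. The stem cell markers summed to 2702 to 3156 FPKM in tetON Foxd3 against 3914 to 3993 FPKM in WT libraries. Neural markers summed to 20.5 to 25.6 against 9.43 to 15.6 FPKM. The part of these shifts in the members' values was not tested.

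Levels in the 6 groups were set side by side on 1 joint scale, as a description without a test, because the tables may have been normalised apart. Per length, the most abundant member was Atp5b, with group means from 685 FPKM (SL deleted) to 1099 FPKM (2i floxed). In complex IV, Cox8a ranged from 303 (SL deleted) to 768 FPKM (2i floxed). Uqcr10 led complex III, with 215 (tetON Foxd3) to 605 FPKM (2i floxed), and Ndufa7 led complex I, with 280.4 (tetON Foxd3) to 498 FPKM (2i floxed). For each of these 4 genes the 2i floxed group was thus the highest of the 6. The lowest members that passed the filter in some comparison were Ndufa11 (17.7 to 26.9 FPKM), Uqcrfs1 (69.9 to 98.7 FPKM), Atp5s (4.85 to 7.27 FPKM) and Cox6a2 (0.0554 to 2.41 FPKM). On the joint scale, the 82 members summed to 18228 and 18818 FPKM in 2i floxed, 12847 and 12378 in 2i labelled deleted, 13132 and 11366 in SL floxed, 11260 and 10791 in SL deleted, 11699 and 11626 in tetON Foxd3, and 11337 and 12073 in WT libraries. The sums of the 4 serum groups and of the 2i labelled deleted group thus lay between 10791 and 13132 FPKM, and those of 2i floxed stood above all others. For some genes the scale matters: for Ndufc1, 2i floxed exceeded SL floxed by 1.81 on the log2 FPKM scale but by 0.37 on the log2 scale of the authors' mean reads over their sum.

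Isoforms differed between tables in the same description. Cox6b2, the testis isoform, had group means of 38.5 and 39.6 FPKM in SL floxed and deleted, and 102 and 111 FPKM in 2i floxed and labelled deleted. Cox7b2 was highest in the feeder-free serum cells, at 7.03 (tetON Foxd3) and 12.4 FPKM (WT), and between 0.789 and 1.71 FPKM elsewhere. Cox7a1 reached 63.1 FPKM in 2i floxed and lay between 13.1 and 33.3 FPKM in the other groups. Beside them, the common isoforms had group means of 220.3 to 436 FPKM (Cox6b1) and 110.1 to 219 FPKM (Cox7a2).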

How the data were processed

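Gene tables were deposited for 3 comparisons. The FPKM values per library were made by the authors, per the file headers, as was the signal per group (mean reads), the signed fold change (a score with a sign for the direction) and the p-value per gene. The submitters' processing notes name DESeq2, Cufflinks, TopHat2, FastQC and SAMtools, with builds mm10 and GRCm38 and no version of a tool. Totals per library are unknown, so no counting interval is given.

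FPKM were divided by median-of-ratios factors within each table. Genes with a mean of at least 1 FPKM in a group were tested with limma 3.58.1 (limma-trend, R 4.3.3) on log2(FPKM + 1), which understates changes of low genes, with Benjamini-Hochberg adjustment over all genes tested and a threshold of 0.05. With 2 libraries a group, 2 residual degrees of freedom were left (4 for the difference between media, an interaction over 8 libraries), and an exact permutation test could not go below p = 0.333. The authors' p-values were adjusted over all genes in the same way. Genes listed at 0 despite over 200 mean reads (failed estimates) numbered 4 in SL, 8 in 2i and 4 in the overexpression table; none is a member. Symbols and lengths came from GENCODE M21. Tables and figures used Python 3.11.15, pandas 2.3.3, numpy 2.4.6 and matplotlib 3.10.9, and the fit was checked on simulated data.

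The members and lists were chosen with earlier results of these data known. Genes named are the isoform sets, the largest called differences, the highest and lowest member of each complex, up to 8 members of the difference between media and up to 3 genes per other list, of which some are not reported here; further genes were named for their role after their values were seen. Alternatives were other scalings, pseudocounts (0.1 and 5), no filter, a shared spread, a replicate block, the authors' test and leaving out each library.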

Additional observations from a re-analysis of the deposited data

Results flagged for a closer look

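The log2 difference between deleted and floxed libraries itself differed between 2i and SL, by limma's test of that difference at an adjusted p under 0.05, for 25 of 79 members tested. Of these, 24 were more negative and 1 more positive in 2i, against 10.8% and 9.62% of all genes. Directions for 2i are between labels. Among the members named, the difference in 2i minus that in SL was -0.70 for Cox7a2l, -0.58 for Atp5g2, -0.54 for Cox8a, -0.66 for Atp5g3, -0.46 for Atp5a1 and -0.50 for Ndufb4. Cox8b was called too, but its labelled deleted libraries were listed at 0, so that its fitted -2.20 depends on the pseudocount and is no measure of size.

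The same test called genes of the other lists, to be read against 10.8% of all genes more negative and 9.62% more positive in 2i. In complex II and cytochrome c it called 3 of 6, at -0.46 (Sdhb), -0.48 (Sdhc) and -0.67 (Sdhd). Of 48 assembly factors it called 8, split into 4 more positive and 4 more negative, the latter with Cox14 at -0.77 and Cox20 at -0.85. Of 13 mitochondrially encoded genes it called 6, all more positive, among them mt-Nd2 at 1.26, mt-Nd3 at 1.92, mt-Nd4 at 1.55 and mt-Nd4l at 1.89. Of 13 regulators tested it called 1, Twnk, at 0.68. Of 17 genes of the citric acid cycle list it called 3, all more negative, among them Cs at -0.44 and Fh1 at -0.51. Of 7 genes of the hypoxia-linked list it called 2, Ndufa4l2 at -1.40 and Atpif1 at -0.46.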

How the results depend on the processing

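With the replicate block the count of members called was 17 in SL, all lower, and 9 in tetON Foxd3 against WT, 7 of them lower. It was 51 between media, 50 of them more negative, and 73 in 2i, 72 of them lower. The share of all genes called is not given here for the block or for left-out libraries. These counts are thus no result particular to the members. Deviations of same-numbered libraries correlated at 0.610 in SL, -0.052 in 2i and 0.604 in tetON and WT, over 2 pairs each. No label says what a shared number marks, and 2 pairs are too few here to take the numbers as pairs. Leaving out 1 library gave 0 to 2 members called in SL, 0 to 1 in tetON against WT and 2 to 61 between media. It gave medians of -0.2601 to -0.0662 in SL, -0.578 to -0.482 in 2i, -0.056 to -0.001 in tetON against WT and -0.457 to -0.237 between media. The median in 2i was -0.302 in FPKM as deposited and -0.429 after upper-quartile scaling; that between media was -0.132 as deposited, with 12 called. In tetON against WT, a spread shared by the 6 groups gave 4 called and the authors' test 1. For single genes, 11 values changed sign. In SL, leaving out 1 library moved Atp5b between -0.244 and 0.002 and Cox6b2 between -0.225 and 0.321. In tetON against WT it moved Atp5b between -0.056 and 0.039, Atp5s between -0.156 and 0.304 and Cox8a between -0.065 and 0.094. Atp5b was there 0.022 as deposited and 0.024 after upper-quartile scaling, and Ndufa11 was 0.026 between media as deposited. Of the other values for named genes, 660 kept direction and side of the threshold, 37 lost the call and 23 gained it. The cause was not tested. The number of libraries (2 a group) and the unknown depth limit all of these tests. The left-out libraries for the mitochondrially encoded list were chosen after seeing the data; they gave 6 to 12 genes called.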
